A study of Mus musculus with 6 samples.

Results

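The opioid system of the dorsal root ganglion (DRG) was examined through 7 genes, the mu, delta, kappa, and nociceptin receptors (*Oprm1*, *Oprd1*, *Oprk1*, and *Oprl1*) and the peptide precursors proenkephalin (*Penk*), prodynorphin (*Pdyn*), and prepronociceptin (*Pnoc*). They were taken by gene symbol from a table of read counts with 48440 rows. All 7 were in the table, and 6 of them were among the 18593 genes abundant enough to be tested. *Pdyn* was not. None of the 6 tested genes differed between the groups at an adjusted p under 0.05. Their estimates were all on the lower side in the DRGs given the *NIS-lncRNA* vectors, as were those of neuronal genes. The untested *Pdyn* went the other way, at 10, 10, and 4 counts against 2 in each control library. When libraries were scaled by neuronal genes, 3 of the 6 turned to the higher side, in a scaling that raised the median of all genes tested to 0.44, and all 6 remained below that median.

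The DRGs came from male mice with the genotype label WT and were collected on the injected side at lumbar levels 3 and 4. One group of 3 libraries had received AAV5-*Gfp*, an adeno-associated virus that carries the gene for green fluorescent protein. The other group of 3 libraries had received AAV5-*V1* and AAV5-*V2* together (AAV5-*V1+V2*), which carry the variants V1 and V2 of *NIS-lncRNA*, a long noncoding RNA linked to nerve injury. The question was which genes lie downstream of this RNA. Every DRG had been microinjected with virus, so an untreated level is not among the comparisons. Each group also had its own virus preparation, and an effect of the preparation and of the RNA it carried cannot be told apart. The deposited text puts collection at 5 weeks after microinjection and also speaks of the comparison at 4 weeks. It does not say whether a library came from 1 mouse or from several, so p-values measure only the spread between these libraries. Libraries were made from total RNA with a stranded kit.

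Opioid peptides are cut from large precursor proteins and act on receptors that couple to inhibitory G proteins. On a sensory neuron, the activated receptor closes voltage-gated calcium channels, can open inwardly rectifying potassium channels, and lowers cyclic AMP, so that less transmitter is released from the central terminal. The mu receptor is the main target of morphine, and its level in the DRG is known to affect how well opioids relieve pain after nerve injury.

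The precursors differ in how many opioid peptides they encode. The opioid core is a tyrosine, 2 glycines, and a phenylalanine, followed by methionine or leucine, and in nociceptin it begins with phenylalanine. A search of the annotated coding sequences found 7 copies in *Penk* (268 codons, 6 ending in methionine and 1 in leucine), 3 in *Pdyn* (248 codons, all ending in leucine), and 1 in *Pnoc* (187 codons, ending in threonine). All of these copies followed 2 codons for basic residues, which is where processing enzymes cut. The copies below are shown because they are the peptide-coding part of the genes measured here. The leucine cores of *Penk* and *Pdyn* encode the same 5 residues, and the flanking codons differ. They are coding-strand DNA of GRCm38, 5′ to 3′, with the 5 codons of the core in capitals and 2 codons on either side in lower case.
Penk copy 1, exon 2, ending in methionine, chr4:4134328-4134354, minus strand: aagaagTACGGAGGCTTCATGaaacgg
Penk copy 6, exon 2, ending in leucine, chr4:4133935-4133961, minus strand: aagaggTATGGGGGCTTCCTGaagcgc
Pdyn copy 1, exon 4, chr2:129688232-129688258, minus strand: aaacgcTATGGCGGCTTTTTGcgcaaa
Pdyn copy 2, exon 4, chr2:129688124-129688150, minus strand: aaacgcTATGGGGGCTTCCTGcggcgc
Pdyn copy 3, exon 4, chr2:129688067-129688093, minus strand: aagcgcTATGGTGGTTTCCTGcggcgt
Pnoc copy 1, exon 3, chr14:65404872-65404898, minus strand: aaaaggTTTGGGGGCTTCACCggggcc

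Libraries held between 32025612 and 34764282 counts, and 1 count was worth 0.0289 to 0.0320 CPM, the count scaled to library size with TMM normalization, in which levels are given below. Of the 18593 genes compared by edgeR's quasi-likelihood test, with p-values adjusted after Benjamini and Hochberg, 1872 were called higher in AAV5-*V1+V2* DRGs and 980 were called lower, at an adjusted p under 0.05. These are 10.1% and 5.27% of the genes tested, and none of the 6 tested opioid genes was among them. With the same counts, limma-voom called 0 of the 6, and DESeq2 and limma-voom with sample weights called 1 each, *Oprl1*. The 3 values of each group did not overlap, with AAV5-*V1+V2* lower, in 4 of the 6 opioid genes. The same separation was seen in 22% of all genes tested, and the opposite one in 23.4%. An unadjusted p under 0.05 with a lower estimate was found for the same 4 genes, against 15.5% of all genes tested. With 3 libraries in each group, an exact permutation test of a single gene cannot give a p below 0.1.

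*Oprm1*, the mu receptor gene (chr10:6758506-7038198, plus strand, with 31 annotated transcripts), was the most abundant of the 7. Its level was 85.9, 86.6, and 96.6 CPM in AAV5-*Gfp* replicates 1, 2, and 3, from 2773, 3000, and 3013 counts. It was 76.6, 78.9, and 80.3 CPM in AAV5-*V1+V2* replicates 1, 2, and 3, from 2522, 2628, and 2754 counts. All 3 AAV5-*V1+V2* values lay below the AAV5-*Gfp* values, which were themselves more widely spread. The means were 89.7 ± 5.96 and 78.6 ± 1.84 CPM (SD, n = 3 each). The log2 fold change was −0.19 (SE 0.07, 95% confidence interval −0.35 to −0.03) with an adjusted p of 0.0988 in edgeR's quasi-likelihood test, and it was 0.25 when libraries were scaled by neuronal genes.

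*Oprl1*, which encodes the nociceptin receptor (chr2:181715016-181720985, plus strand), had levels of 22.2, 20.1, and 20.9 CPM in AAV5-*Gfp* replicates 1, 2, and 3. The AAV5-*V1+V2* levels were 12.4, 17, and 17.9 CPM. The groups did not overlap, and replicate 1 of AAV5-*V1+V2* stood well below its group. The log2 fold change was −0.42 (SE 0.14, interval −0.75 to −0.09) with the smallest adjusted p of the opioid genes, 0.0826 in edgeR's quasi-likelihood test. It was −0.27 (adjusted p = 0.0558, the same test) without AAV5-*V1+V2* replicate 1 and −0.51 (adjusted p = 0.0477) without AAV5-*V1+V2* replicate 3, so that leaving out the latter put it past the threshold.

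*Oprk1*, the kappa receptor gene and the receptor for dynorphins (chr1:5588466-5606131, plus strand), was measured at a low level. AAV5-*Gfp* replicates had 2.45, 2.37, and 2.63 CPM, from 79, 82, and 82 counts. AAV5-*V1+V2* replicates had 1.43, 1.92, and 1.87 CPM, from 47, 64, and 64 counts. No AAV5-*V1+V2* value reached the AAV5-*Gfp* range. The log2 fold change was −0.51 (SE 0.18, interval −0.92 to −0.10), with an adjusted p of 0.0891 in edgeR's quasi-likelihood test.

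*Oprd1*, the delta receptor gene and with *Oprm1* a receptor for enkephalins (chr4:132110726-132144486, minus strand), was the one receptor gene whose groups overlapped. Its levels were 9.39, 7.79, and 7.72 CPM in AAV5-*Gfp* DRGs. They were 5.53, 8.53, and 8.89 CPM in AAV5-*V1+V2* DRGs. Only replicate 1 of AAV5-*V1+V2* lay below the AAV5-*Gfp* range, and the other 2 lay within it. The log2 fold change of −0.12 (SE 0.19, interval −0.57 to 0.34, adjusted p = 0.693 in edgeR's quasi-likelihood test) became 0.07 without that library and 0.28 when libraries were scaled by neuronal genes.

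*Penk*, the source of the enkephalins (chr4:4133531-4138819, minus strand), was the most abundant precursor gene. Levels were 4.18, 4.16, and 3.17 CPM in AAV5-*Gfp* DRGs, from 135, 144, and 99 counts. Levels were 2.31, 3.33, and 3.93 CPM in AAV5-*V1+V2* DRGs, from 76, 111, and 135 counts. The groups overlapped, since AAV5-*Gfp* replicate 3 lay below 2 of the AAV5-*V1+V2* libraries. The log2 fold change was −0.26 (SE 0.22, interval −0.79 to 0.26, adjusted p = 0.433 in edgeR's quasi-likelihood test), and 0.12 when libraries were scaled by neuronal genes. Its interval runs from a log2 decrease of 0.79 to an increase of 0.26, so the direction of any change was not settled here.

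*Pnoc*, the precursor of nociceptin (chr14:65400673-65425472, minus strand), was near the lower end of what could be tested. It had 18, 17, and 19 counts in AAV5-*Gfp* libraries and 10, 9, and 14 in AAV5-*V1+V2* libraries. The corresponding levels were 0.558, 0.491, and 0.609 CPM against 0.304, 0.270, and 0.408 CPM. The groups did not overlap, and the log2 fold change was −0.74 (SE 0.28, interval −1.40 to −0.08), the largest in size of the 6, with an adjusted p of 0.112 in edgeR's quasi-likelihood test. The ratio of the summed counts, AAV5-*V1+V2* to AAV5-*Gfp*, was 0.597, with an exact 95% interval of 0.375 to 0.937 that covers counting error only.

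*Pdyn*, the source of the dynorphins that act on the kappa receptor (chr2:129686565-129699844, minus strand), was at the edge of detection. Each AAV5-*Gfp* library had 2 counts, under the floor of 3 counts. AAV5-*V1+V2* replicates 1, 2, and 3 had 10, 10, and 4 counts. All 3 AAV5-*V1+V2* libraries thus exceeded the AAV5-*Gfp* libraries, the opposite order to that of *Pnoc*. Summed over a group, 24 counts stood against 6, a ratio of 3.91 with an exact 95% counting interval of 1.56 to 11.7. In a fit without the filter on low counts, which took in 30623 genes, the adjusted p was 0.0794 with edgeR's quasi-likelihood test. It was 0.0323 in the same fit without AAV5-*V1+V2* replicate 3, the library of that group with the lowest count. Over 15 alternatives to this fit, the adjusted p ran from 0.0319 to 0.219, and 13 of them left *Pdyn* uncalled.

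**Figure D1:**
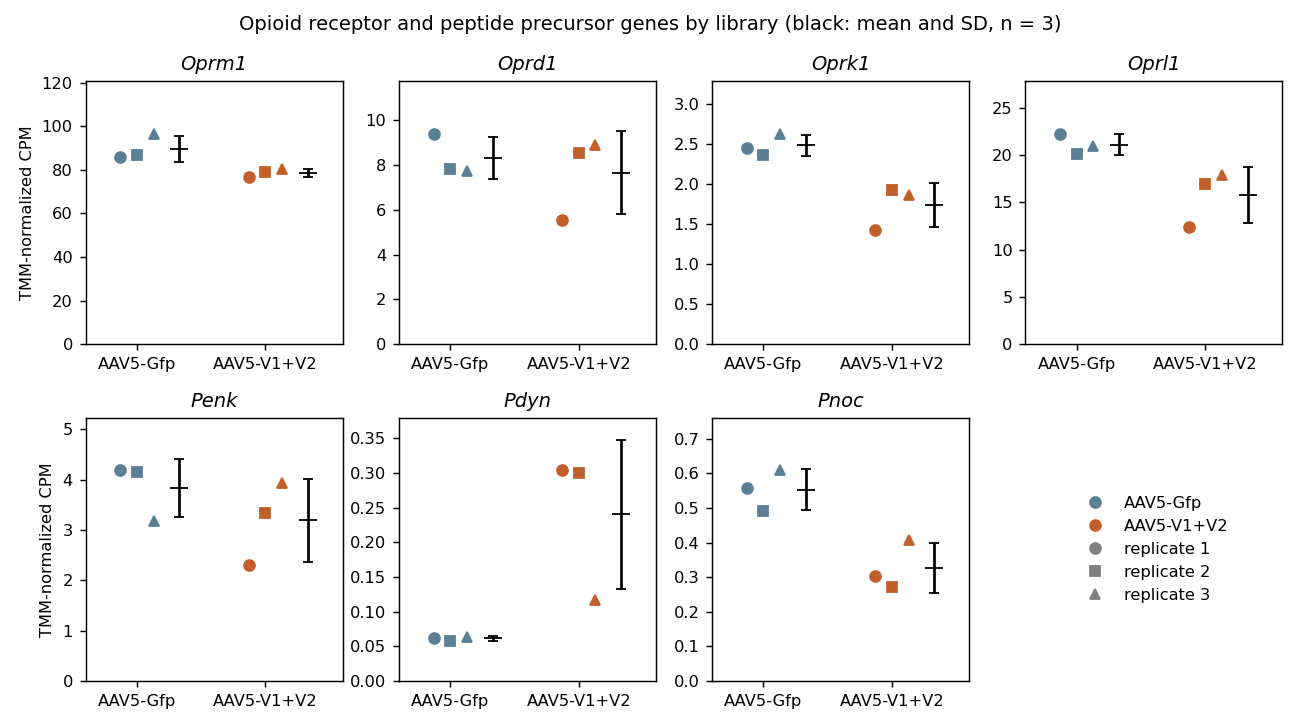
Level of each opioid gene in CPM (vertical axes, each starting at 0) for the 3 AAV5-*Gfp* and 3 AAV5-*V1+V2* libraries, with black marks for the mean and SD. *Oprm1*, *Oprk1*, *Oprl1*, and *Pnoc* are lower in AAV5-*V1+V2* without overlap, and *Oprd1* and *Penk* overlap. None of these 6 tested genes passed an adjusted p under 0.05. *Pdyn* is higher, from 10, 10, and 4 counts against 2 in each AAV5-*Gfp* library, and was too scarce to be tested. *Oprm1*, *Oprd1*, and *Penk* turned to the higher side when libraries were scaled by neuronal genes, which raised the median of all genes to 0.44, and relative to it they stood at −0.19, −0.16, and −0.32.

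Levels were compared between genes after division by the length of all annotated exons. Per kilobase, mean AAV5-*Gfp* levels were 11.2 CPM for *Oprm1*, 5.62 for *Oprl1*, 2.35 for *Penk*, 2.06 for *Oprd1*, 0.271 for *Oprk1*, 0.256 for *Pnoc*, and 0.0212 for *Pdyn*. The order was the same in AAV5-*V1+V2* DRGs, at 9.78, 4.20, 1.95, 1.90, 0.190, 0.152, and 0.0832 CPM per kilobase. Within this order, the values of *Penk* and *Oprd1* overlapped between libraries, as did those of *Oprk1* and *Pnoc*, whereas the other neighbours did not overlap. Within a library, *Penk* was above *Oprd1* in 5 of 6 and *Oprk1* above *Pnoc* in 6 of 6. Division by the length of 1 principal transcript in place of all exons kept the order of the means and raised *Oprm1*, which has many alternative exons, to 37.9 CPM per kilobase in AAV5-*Gfp* DRGs. By that length *Oprk1* and *Pnoc* did not overlap, and *Pnoc* and *Pdyn* did.

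Of the summed level of the 4 receptor genes per kilobase of exon, *Oprm1* made up 55.6% to 66.4% over the 6 libraries, *Oprl1* 22.9% to 30.8%, *Oprd1* 9.58% to 12.9%, and *Oprk1* 1.09% to 1.45%. The highest *Oprm1* share and the lowest shares of the other 3 all came from AAV5-*V1+V2* replicate 1. Its *Oprm1* share was 66.4%, against 55.6% to 60.7% in AAV5-*Gfp* libraries and 58.9% and 58.2% in the other AAV5-*V1+V2* libraries. For *Oprk1*, the share was 1.39%, 1.41%, and 1.45% in AAV5-*Gfp* DRGs and 1.09%, 1.26%, and 1.19% in AAV5-*V1+V2* DRGs, without overlap.

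**Figure D2:**
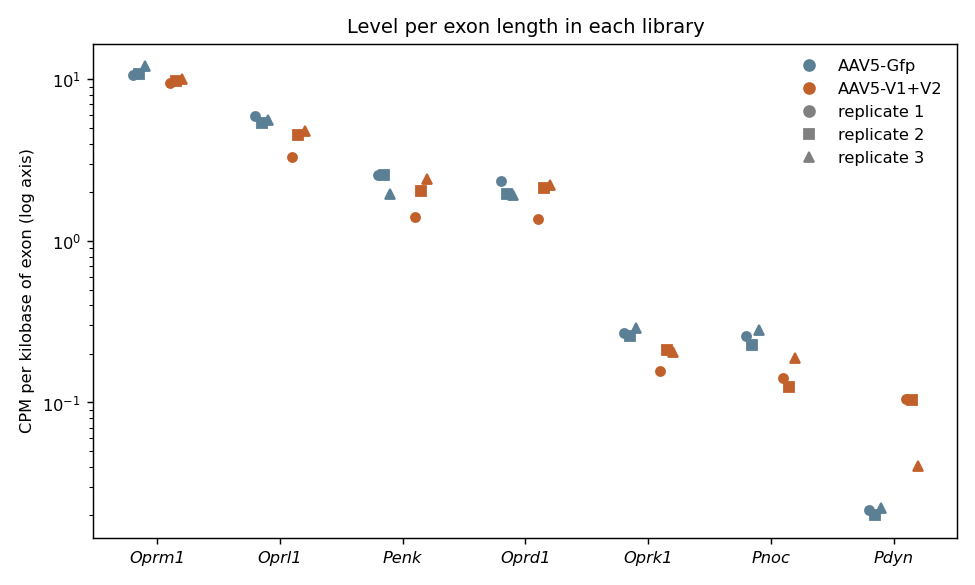
Level of each opioid gene in CPM per kilobase of exon (vertical axis, logarithmic), 1 point per library, ordered by level. *Oprm1* lies highest, at a mean of 11.2 in AAV5-*Gfp* and 9.78 in AAV5-*V1+V2* DRGs, and *Pdyn* lowest, at 0.0212 and 0.0832.

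Reads of 2 of the opioid genes could be shared with a gene on the opposite strand, and whether strand was used in counting is not given in the sources used here. *Oprm1* shares 96 exon bases with *Ipcef1*, which had 28, 38, and 33 counts in AAV5-*Gfp* libraries and 126, 51, and 64 in AAV5-*V1+V2* libraries. These counts are small beside those of *Oprm1*. *Penk* shares 233 exon bases with *A830012C17Rik*, at 20, 26, and 21 counts against 22, 17, and 14, which is not small beside its own.

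A list of 10 genes held enzymes and granule proteins that turn precursors into peptides, and also *Pomc*, itself a precursor. Of these 10, 9 had a log2 fold change below 0, *Pomc* (−0.18) among them. *Pcsk1n*, named after its values were seen, stood at 0.28 (adjusted p = 0.483). EdgeR called none of the 10, of which 4 were lower at an unadjusted p under 0.05. DESeq2 called 4 lower, limma-voom 0, and limma-voom with sample weights 3. Their median log2 fold change was −0.28, against −0.0003 over all genes tested, and 8 of the 10 were lower in AAV5-*V1+V2* without overlap. The same separation was seen in 22% of all genes tested, and in 8 of 10 pan-neuronal and 11 of 12 nociceptor genes. *Pcsk2*, the convertase that cuts at paired basic residues such as those beside the printed cores, had a log2 fold change of −0.55 (adjusted p = 0.0728). *Scg5*, which helps *Pcsk2* to mature, stood at −0.44 (adjusted p = 0.0643). The granins *Scg2* and *Chgb* stood at −0.37 and −0.44 (adjusted p = 0.0653 and 0.0853, edgeR's quasi-likelihood test as for all genes here). *Pomc*, the precursor of beta-endorphin, was scarcely present, at 0.419 CPM in AAV5-*Gfp* and 0.368 CPM in AAV5-*V1+V2* DRGs.

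Among 8 peptidases known to break down opioid peptides, edgeR called 1 higher and none lower, and the list's median was −0.08. An unadjusted p under 0.05 was found for 2 on the lower side. DESeq2 and limma-voom with sample weights each called 1 higher and 2 lower (*Ece2* and *Npepps*), and limma-voom called none. *Anpep*, aminopeptidase N, which removes the first tyrosine of enkephalins, rose from 10.3, 9.75, and 8.04 CPM in AAV5-*Gfp* replicates 1 to 3 to 27.8, 17.5, and 12.5 CPM in AAV5-*V1+V2* replicates 1 to 3. Its log2 fold change was 1.04 (SE 0.28, adjusted p = 0.0462), and 0.68 (adjusted p = 0.0405) without AAV5-*V1+V2* replicate 1. Without AAV5-*Gfp* replicate 1, 2, or 3 or AAV5-*V1+V2* replicate 2 its adjusted p was 0.104, 0.127, 0.160, or 0.0846 in edgeR's quasi-likelihood test. *Anpep* is also carried by myeloid cells, and 7 of 9 macrophage and monocyte markers were called higher. Whether this bears on the level of *Anpep* was not tested. Neprilysin, the product of *Mme* and the other main enkephalin-degrading enzyme, stood at −0.12 (adjusted p = 0.346), and this gene is named outside the rule for named genes. *Ece2*, *Npepps*, and *Lnpep* stood at −0.32, −0.22, and −0.17 without passing edgeR's test (adjusted p = 0.0647, 0.0672, and 0.182, edgeR's quasi-likelihood test).

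Among the opioid pathway lists, that of the receptors' signaling partners was the longest and held most of the 15 genes called by edgeR. Over all genes tested, 5.27% were called lower and 10.1% higher. Of 18 G protein and effector genes, 17 were tested (*Kcnj5* had at most 14 counts), edgeR called 7 lower and 1 higher, and their median log2 fold change was −0.23. DESeq2 called 9 lower and 1 higher, limma-voom 6 and 0, and limma-voom with sample weights 8 and 1. *Kcnj6*, a subunit of the inwardly rectifying potassium channels that opioid receptors open, fell from 4.18, 5.11, and 5.90 CPM to 2.13, 2.40, and 2.19 CPM, a log2 fold change of −1.18 (SE 0.17, adjusted p = 0.0144). *Cacna1b*, the N-type calcium channel that they close, fell from 202, 197, and 242 CPM to 97.0, 127, and 154 CPM, a log2 fold change of −0.76 (SE 0.17, adjusted p = 0.0288). *Cacna1a*, the P/Q-type channel, fell by 0.64 on the log2 scale (SE 0.12, adjusted p = 0.0191) and *Adcy8*, an adenylyl cyclase stimulated by calcium, by 0.63 (SE 0.09, adjusted p = 0.0144). The called genes beyond these, named after their values were seen, were *Gnao1* (−0.72), *Gnai1* (−0.30), and *Adcy5* (−0.26), which were lower, and *Gnai2* (0.47), which was higher and is abundant in leukocytes. Whether leukocytes bear on the level of *Gnai2* here was not tested. When libraries were scaled by neuronal genes, none of the 7 was called lower, and *Gnai1* and *Adcy5* turned to 0.13 and 0.17. That scaling put the median of all genes tested at 0.44 and left 12 genes called lower in all. Relative to that median, the 7 stood between −1.18 (*Kcnj6*) and −0.27 (*Adcy5*). None of the 7 remained called without AAV5-*Gfp* replicate 2 or without replicate 3.

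Of 16 genes for receptor desensitization and RGS proteins, which end G protein signaling, edgeR called 4 higher and 1 lower, with a median log2 fold change of −0.20. At an unadjusted p under 0.05, 5 were higher and 7 lower, and 5 were higher and 9 lower without overlap between groups. Over all genes tested, 23.4% were higher and 22% lower without overlap, and edgeR called 10.1% higher and 5.27% lower. DESeq2 and limma-voom with sample weights each called 5 higher and 5 lower, and limma-voom 3 higher and 1 lower. The G protein–coupled receptor kinases *Grk3* and *Grk2*, listed in the counts under their older symbols *Adrbk2* and *Adrbk1*, were higher by 0.62 and 0.39 on the log2 scale (SE 0.14 and 0.09, adjusted p = 0.0286 and 0.0364). *Arrb2*, beta-arrestin that binds the phosphorylated mu receptor, was higher by 0.45 (SE 0.09, adjusted p = 0.0246). Levels of *Grk3* were 23.5, 21.9, and 22.1 CPM in AAV5-*Gfp* and 42.0, 32.9, and 28.9 CPM in AAV5-*V1+V2* replicates 1, 2, and 3, highest in the replicate with most immune transcripts. A link between *Grk3* and immune transcripts was not tested. *Rgs7*, a neuronal RGS protein, fell by 0.78 (SE 0.15, adjusted p = 0.0204), from 148, 160, and 192 CPM to 79.7, 101, and 112 CPM. It was not called when libraries were scaled by neuronal genes (−0.36, adjusted p = 0.0824), nor without AAV5-*Gfp* replicate 1, 2, or 3 or AAV5-*V1+V2* replicate 2 (adjusted p = 0.0514, 0.0837, 0.0902, and 0.0512, edgeR's quasi-likelihood test). With neuronal scaling the median of all genes tested was 0.44, and *Rgs7* stood at −0.80 relative to it. *Rgs19*, named after its values were seen, rose by 0.73 (SE 0.18, adjusted p = 0.0365) and lies 21038 bases from *Oprl1* on chromosome 2, on the other strand, while *Oprl1* itself stood at −0.42. The 4 genes called higher here, and *Anpep*, *Gnai2*, and *Ogfr* with them, all lost their call without any 1 of the AAV5-*Gfp* libraries and without AAV5-*V1+V2* replicate 2.

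Of the other 3 opioid-binding receptors and chaperones, *Ogfr*, the opioid growth factor receptor, was called higher, with a log2 fold change of 0.38 (SE 0.10, adjusted p = 0.0487). It was 20.6, 18.7, and 17.7 CPM in AAV5-*Gfp* and 28.0, 23.2, and 23.2 CPM in AAV5-*V1+V2* DRGs. *Ackr3*, an atypical receptor that takes up opioid peptides, stood at 0.28 (adjusted p = 0.155), and *Rtp4*, a chaperone of mu and delta receptors, at −0.23 (adjusted p = 0.173). Among 6 genes described as repressors of *Oprm1* transcription, edgeR called none, and 3 were higher at an unadjusted p under 0.05. DESeq2, limma-voom, and limma-voom with sample weights called 1, 0, and 2 higher. The 6 had a median log2 fold change of 0.23, and 3 were higher without overlap, as were 23.4% of all genes tested. *Rest*, *Mbd1*, *Ehmt2*, and *Dnmt3a* stood at 0.52, 0.23, 0.32, and 0.24 (adjusted p = 0.0855, 0.0731, 0.117, and 0.168).

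**Figure D3:**
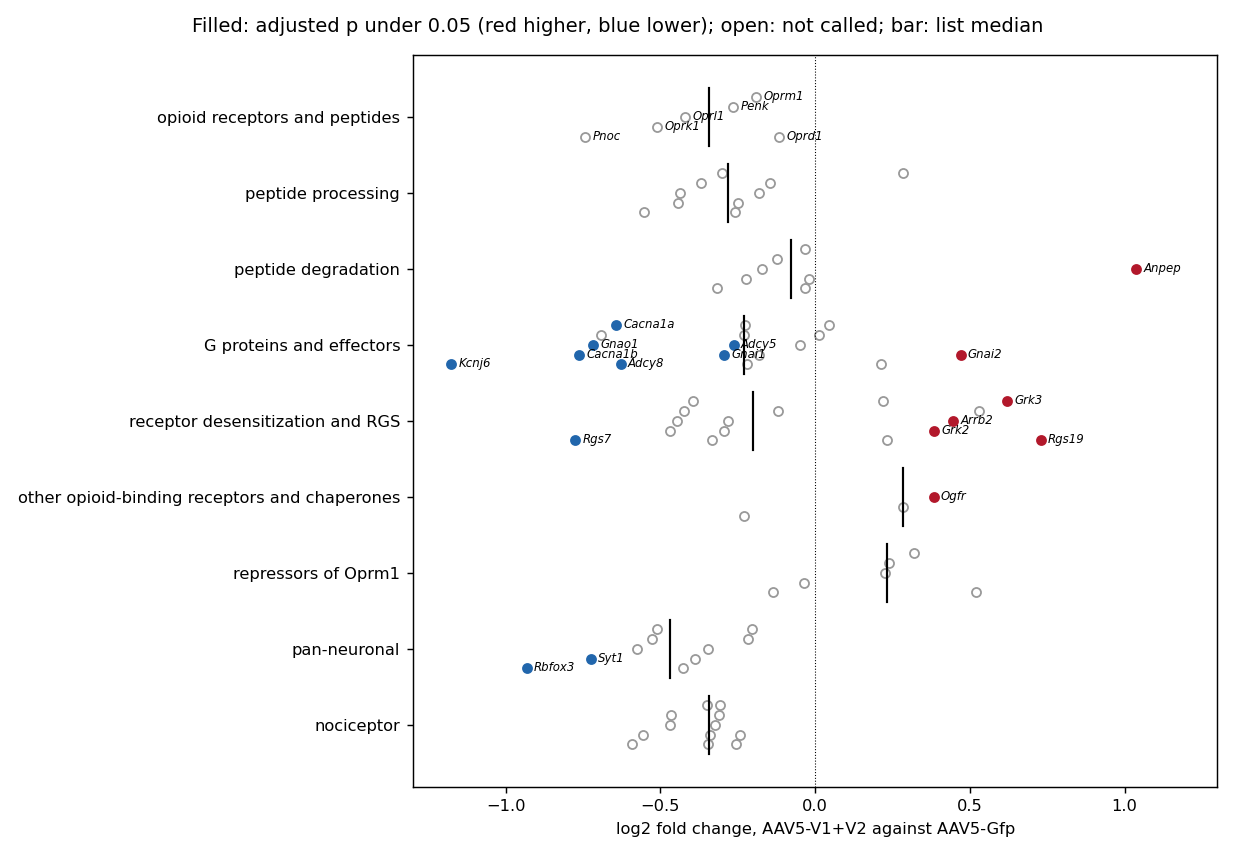
Log2 fold change of AAV5-*V1+V2* against AAV5-*Gfp* (horizontal axis) for each tested gene of the opioid lists and of 2 neuronal lists, with filled points for genes at an adjusted p under 0.05 and a bar for each list's median. The opioid genes are all open points, their median of −0.34 equals that of the nociceptor genes, and both turn positive when libraries are scaled by neuronal genes (0.05 and 0.08), where the median of all genes tested is 0.44 and they stand at −0.39 and −0.36 relative to it.

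Markers of DRG neurons were present in all 6 libraries, and most markers of the spinal cord were too scarce to be tested. The 3 tested were *Gfap* (131 to 338 counts in a library), *Aqp4* (132 to 225), and *Gad1* (19 to 23), and the others had at most 10 counts. *Aqp4* had a log2 fold change of −0.48 (adjusted p = 0.102, edgeR's quasi-likelihood test). *Olig2* and *Slc32a1* had at most 1 count in any library, and the 10 spinal cord markers summed to 11.3 to 12.7 CPM in AAV5-*Gfp* and 11.4 to 15.6 CPM in AAV5-*V1+V2* DRGs. The neuronal share of the RNA differed between groups. The 10 pan-neuronal genes summed to 5237 to 5687 CPM in AAV5-*Gfp* DRGs and to 3167 to 4612 CPM in AAV5-*V1+V2* DRGs, with 2 genes called lower and a median log2 fold change of −0.47. The 12 nociceptor genes summed to 2418 to 2756 CPM against 1505 (replicate 1) to 2130 CPM, with a median of −0.34, the same as that of the opioid genes. EdgeR called none of the 12, of which 9 were lower at an unadjusted p under 0.05, and DESeq2, limma-voom, and limma-voom with sample weights called 5, 0, and 6 lower. The 8 genes of large-diameter and low-threshold neurons had 2 called lower and a median of −0.36. In bulk tissue, fewer cells of a type and less RNA per cell cannot be told apart.

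Immune transcripts moved the other way. The 9 macrophage and monocyte genes summed to 176 to 243 CPM in AAV5-*Gfp* and 486 to 1388 CPM in AAV5-*V1+V2* DRGs, with 7 called higher, the 10 T and NK cell genes to 4.39 to 13 against 42.0 to 89.8 CPM, with 9 called higher, and the 8 B and plasma cell genes to 11.1 to 19.6 against 248 to 379 CPM, with 7 called higher. Of 5 neutrophil genes edgeR called 1 higher, and 4 were higher at an unadjusted p under 0.05. Of 7 genes of fibroblasts and perineurium it called 1 higher (*Col1a2*), and 3 were higher at an unadjusted p under 0.05. DESeq2 and limma-voom with sample weights each called 4 and 3 of these 2 lists higher, and limma-voom 0 and 1. Over all genes tested, edgeR called 10.1% higher. Of the 3 tested spinal cord markers 1 was called higher (*Gfap*, a marker of glia that satellite cells also use). None of the 9 genes of satellite glia and Schwann cells was called by edgeR or by the other 3 tools, and 1 was lower at an unadjusted p under 0.05. AAV5-*V1+V2* replicate 1 had the highest immune sums and the lowest neuronal sums. It was also the lowest library for *Oprm1*, *Oprd1*, *Oprk1*, *Oprl1*, and *Penk*. The part of this library's cell makeup in these levels was not tested.

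**Figure D4:**
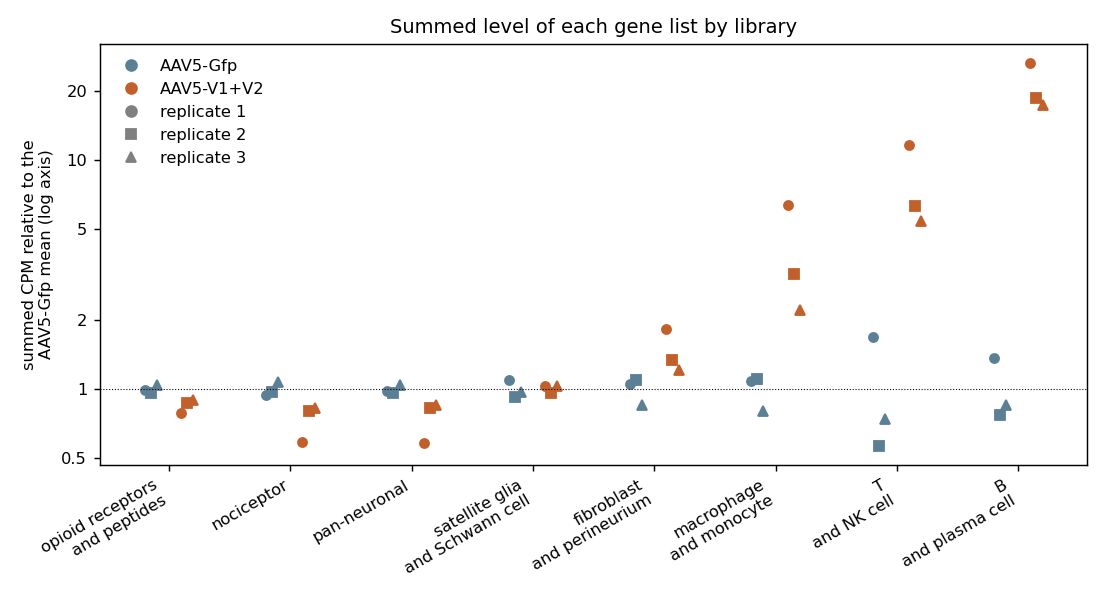
Summed CPM of each gene list in each library, relative to the mean of the AAV5-*Gfp* libraries (vertical axis, logarithmic). AAV5-*V1+V2* replicate 1 stood at 58.4% of the AAV5-*Gfp* mean for pan-neuronal genes, at 78.5% for the opioid genes, and at 634% for macrophage and monocyte genes.

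When libraries were scaled by the pan-neuronal genes, the median log2 fold change over all genes tested moved to 0.44 (−0.0003 with TMM), and none of the 6 tested opioid genes was called. In the fit without the filter on low counts, *Pdyn* was called higher on this scale (2.34, adjusted p = 0.0319, edgeR's quasi-likelihood test). *Oprm1* had a log2 fold change of 0.25 (SE 0.16, adjusted p = 0.229), *Oprd1* of 0.28 (adjusted p = 0.264), and *Penk* of 0.12 (adjusted p = 0.678) on this scale. *Oprl1* stood at −0.01, *Oprk1* at −0.10, and *Pnoc* at −0.33. Relative to the median of all genes, the 6 values were −0.19 for *Oprm1*, −0.16 for *Oprd1*, −0.54 for *Oprk1*, −0.45 for *Oprl1*, −0.32 for *Penk*, and −0.77 for *Pnoc*, close to those with TMM.

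A ratio to the neuronal genes of the same library was added after the values were seen. Per 1000 CPM of pan-neuronal genes, *Oprm1* had 16.1, 16.5, and 17 CPM in AAV5-*Gfp* and 24.2, 17.6, and 17.4 CPM in AAV5-*V1+V2* replicates 1, 2, and 3. The groups no longer stood in the order they had in CPM, and AAV5-*V1+V2* replicate 1 became the highest library (exact two-sided permutation test, p = 0.1, the smallest it can give). The divisor of that library was 58.4% of the AAV5-*Gfp* mean, which raises the ratio of any gene there. When libraries were scaled by these genes, 8081 of all genes tested were higher and 154 lower at an unadjusted p under 0.05 (edgeR's quasi-likelihood test). *Oprl1* had 4.16, 3.84, and 3.67 against 3.91, 3.78, and 3.88, with overlap. *Oprk1* kept its order, at 0.458, 0.452, and 0.462 against 0.451, 0.428, and 0.405, but by a small margin. *Pnoc*, at 0.104, 0.0937, and 0.107 against 0.0960, 0.0601, and 0.0885, now overlapped between groups, as did *Oprd1* and *Penk*. *Pdyn* was at 0.0116, 0.0110, and 0.0113 against 0.0960, 0.0668, and 0.0253, still from 10 counts or fewer in a library.

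**Figure D5:**
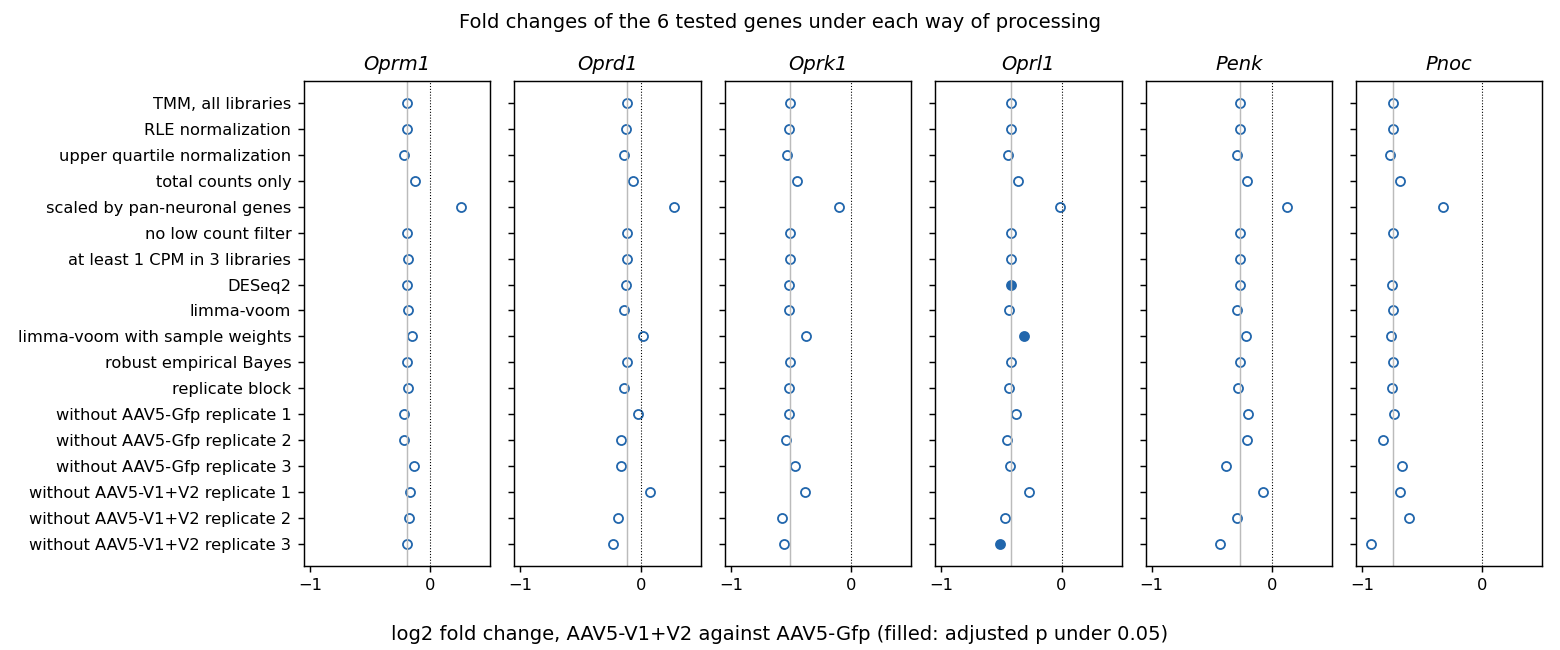
Log2 fold change of AAV5-*V1+V2* against AAV5-*Gfp* (horizontal axes) of the 6 tested opioid genes under each way of processing, 1 point each, filled at an adjusted p under 0.05. *Oprl1* ranges from −0.51 to −0.01 and is filled under 3 alternatives, while *Oprm1*, *Oprd1*, and *Penk* pass 0 when libraries are scaled by neuronal genes, where the median of all genes is 0.44.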

How the data were processed

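The table that the authors deposited holds counts of reads on each gene symbol, without normalization, for the 6 libraries. The aligner, counting program, annotation, and strand setting are not given in the sources used here, and the submitters' processing notes name GRCm38 (mm10). Counts were fitted in R 4.3.3 with edgeR 4.0.16 (filterByExpr, TMM, glmQLFit, and glmQLFTest, two-sided, no covariate), and p-values were adjusted by Benjamini-Hochberg over all 18593 genes tested. Standard errors were taken as the size of the log2 coefficient over the root of F. Log2 CPM used a prior count of 2. Exon lengths and coordinates came from GENCODE M21 on GRCm38, and coding sequence from that genome.

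The 7 genes and the gene lists were chosen with earlier results of these data known. Named genes were the 7 opioid genes, up to 4 genes of each list with the smallest adjusted p, and the 3 genes most correlated with each opioid gene. *Grk2*, *Grk3*, and *Dpp3* were read under older symbols. Alternatives were other normalizations, filters, and thresholds, DESeq2 1.42.0, limma-voom (limma 3.58.1) with and without sample weights, robust empirical Bayes, a replicate block, and leaving out each library. The scripts were tested on simulated data. Within groups, chi-square values per degree of freedom between libraries were 8.79 to 52.7, more than sampling noise gives for every pair.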

Additional observations from a re-analysis of the deposited data

How the results depend on the processing

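No other fit put *Oprm1*, *Oprd1*, *Oprk1*, *Penk*, or *Pnoc* at an adjusted p under 0.05. *Oprl1* passed it with DESeq2 (−0.42, adjusted p = 0.0426) and with voom sample weights (−0.31, adjusted p = 0.0335), so that 1 opioid gene was called lower in each, against 3 at an adjusted p under 0.1 and 4 at an unadjusted p under 0.05. Over its alternatives, the adjusted p of *Oprl1* ran from 0.0335 to 0.945. Genes called lower numbered 1606 with DESeq2 and 1995 with sample weights. Genes called higher and lower numbered 2898 and 2030 at an adjusted p under 0.1, 1052 and 47 with a 2-fold change added, and 3577 and 2878 at an unadjusted p under 0.05. With neuronal scaling, 1822 were higher and 12 lower. *Pdyn* was called with that scaling only in the fit without the filter on low counts (2.34, adjusted p = 0.0319, edgeR's quasi-likelihood test). Called genes were 65.6% higher with TMM, 74.6% with total counts only, and 99.3% with neuronal scaling. Neuronal scaling turned *Oprm1* to 0.25, *Oprd1* to 0.28, *Penk* to 0.12, *Scg2* to 0.0454, *Ece2* to 0.11, *Npepps* to 0.23, *Lnpep* to 0.28, *Rtp4* to 0.22, *Ntrk2* to 0.0027, *Th* to 0.0669, *Kcnj10* to 0.14, *Cdh19* to 0.18, and *Fabp7* to 0.35. Sample weights turned *Oprd1* to 0.0218 and *Fabp7* to 0.0274. Neuronal scaling also moved the median of all genes tested to 0.44, and every gene named as turned by it stayed below that median. The cause of the shifts with sample weights was not tested.

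Leaving out 1 library gave 12 to 2474 genes called higher and 0 to 1446 called lower. Without AAV5-*Gfp* replicate 2 there were 12 and 0 calls in edgeR's quasi-likelihood test (2916 and 2029 at an unadjusted p under 0.05), without AAV5-*Gfp* replicate 3 15 and 0 (2932 and 1815), without AAV5-*Gfp* replicate 1 257 and 59, and without AAV5-*V1+V2* replicate 2 1020 and 150. Of the 15 called genes in the opioid pathway lists, 3 kept their call without AAV5-*Gfp* replicate 1, none without AAV5-*Gfp* replicate 2 or 3, 13 without AAV5-*V1+V2* replicate 1, 2 without AAV5-*V1+V2* replicate 2, and 13 without AAV5-*V1+V2* replicate 3. *Ogfr* lost its call under 9 of 17 alternatives and *Anpep* under 6. Opioid genes called higher numbered 0 to 1 and called lower 0 to 1, both at their highest without AAV5-*V1+V2* replicate 3. The one called higher there was *Pdyn* (adjusted p = 0.0237, edgeR's quasi-likelihood test), which the main fit did not test. It passed the low count filter there only through the remaining AAV5-*V1+V2* libraries, at 10 counts each against 2 in each AAV5-*Gfp* library. That call therefore cannot be read as support for a change. Over the libraries left out, the log2 fold change ranged from −0.23 to 0.0742 for *Oprd1* and from −0.51 to −0.27 for *Oprl1*. It ranged from 1.71 to 2.25 for *Pdyn* (without the filter) and from −0.0550 to 0.103 for *Gad1*.

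The labels name no shared source for same-numbered libraries, and the main fit did not pair them. The deviations of same-numbered libraries correlated at 0.0360, 0.0658, and 0.107. Differently numbered libraries were not compared, so these values cannot decide whether the replicate numbers pair the libraries. With the replicate block, 2118 genes were called higher and 1341 lower, no opioid gene was called, and the smallest adjusted p was 0.0843, for *Oprl1*. Depth limits *Pdyn* and *Pnoc* most, at 2 to 19 counts in a library.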

Other observations

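For each opioid gene with a mean of at least 1 CPM, the genes whose level followed it most closely over the 6 libraries were named, out of 16065 genes compared. All libraries and their normalization are shared in these correlations, and those named are the 3 highest of all compared. *Oprm1* was followed by *Wdfy3*, *Vps53*, and *Myo16* (Pearson's r = 0.999, 0.998, and 0.998 over 6 libraries). *Oprk1* was followed by *Apba1*, *Kifap3*, and *Amigo1* (0.999 for each), and *Oprl1* by *Nipsnap1*, *Gm14421*, and *Gabarapl1* (1.00, 0.999, and 0.998). *Oprd1* was followed by *1190002N15Rik*, *Zfp775*, and *Tspyl1* (0.997, 0.992, and 0.990), and *Penk* by *Med9*, *Sdha*, and *Trim23* (0.992, 0.988, and 0.988). The 15 genes all had log2 fold changes below 0 with TMM, between −0.50 and −0.07. Among the opioid genes themselves, *Oprk1* and *Oprl1* followed each other most closely (0.960) and *Oprd1* and *Oprm1* least (0.289).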
